A study of Homo sapiens with 2 samples.

Results

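The narrowest GRHL2 regions of the KYSE510 ChIP-seq list are described here, and how they were spread along the chromosomes. Members were chosen by their measured width. A member was a GRHL2 region on chromosomes 1 to 22 whose width equalled the smallest in the list, 265 bp, and which shared no base with an MLL3 region. There were 40367 members among 150974 GRHL2 regions on these chromosomes, a share of 26.7% (exact Clopper-Pearson 95% interval 26.5 to 27.0%), and among 153209 lines in the whole list. Of the 40575 regions of this width on chromosomes 1 to 22, 208 overlapped an MLL3 region and were set aside.

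KYSE510 is an established line of human esophageal squamous cell carcinoma. Chromatin of untreated cells, fixed with formalin and sonicated, was precipitated with an antibody against MLL3 (also called KMT2C) in 1 library and with an antibody against GRHL2 in the other, and regions were called against input. Both libraries come from this 1 line, and silenced cells, which the design text also mentions, were not analysed here. With 1 library per antibody no value carries an error between replicates, and no test between groups was made. Intervals below cover counting error only and treat regions as independent.

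GRHL2 is a Grainyhead-like transcription factor that binds DNA directly and keeps epithelial genes such as those of cell junctions active. MLL3 is a histone methyltransferase that marks enhancers with monomethylated lysine 4 of histone H3. A peak caller lists a place as a region when more ChIP fragments pile up there than a background expectation predicts. The width of a region is the stretch over which this excess was called. Tumour genomes carry gains and losses of large chromosome segments, and these change how many fragments a segment gives to the ChIP and to the input alike. Copy number was not measured here, and its part in any value below was not tested. No hg19 sequence or gene positions were used, so the bases of the regions and the genes near them are not given, and the cell line's label was not checked against markers.

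The members were weak calls. Their fold enrichment, the authors' ratio of the ChIP pileup at the summit to the local background, had a median of 2.40 (quartiles 2.24 and 2.80, range 1.61 to 3.96). Their median −log10 p was 2.35 (range 1.30 to 6.04). An adjusted p (q) under 0.05 was reached by 2315 members (5.73%, 95% interval 5.51 to 5.97%), against a background of 31.0% of all GRHL2 regions on these chromosomes. A −log10 q of at least 2 was reached by 74 members (0.183%), against 19.5% of all GRHL2 regions on these chromosomes. Width goes with the strength of a call, so these values describe the choice and support nothing further. Just outside the rule, the 387 regions of 266 bp had a median fold of 2.80 and a q under 0.05 in 23.0% of cases, and the 208 regions of 265 bp with MLL3 had a median fold of 2.47. The 9937 wide regions, those of 1000 bp or more, had a median fold of 6.30 and a median −log10 p of 12.2.

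Fold and p together gave the number of fragments behind each member. In the Poisson model of MACS2, fold is (pileup + 1) / (background + 1), and p is the chance of more fragments than the pileup at that background. A single whole-number pileup met both deposited values, within 0.001 of the −log10 p, for 40362 of the 40367 members (99.99%), and 5 members had more than 1 such pileup. Members rested on 4 to 14 overlapping fragments, with 5 fragments in 15979 members, 6 in 14243, 7 in 5228 and 4 in 3384. Together, 4 to 7 fragments covered 96.2% of members (95% interval 96.0 to 96.4%). The implied background had a floor of 1.502 fragments, and 21601 members (53.5%, 95% interval 53.0 to 54.0%) sat on it, as did 37.6% of the other GRHL2 regions with a recovered pileup. At this floor 4 fragments give a −log10 p of 1.73, which passes the limit of the list near 1.30, and 3 fragments give 1.18, which does not. These are values derived under that model, and no reads were used.

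The highest and lowest folds among members came with both different pileups and different backgrounds. The highest fold, 3.96, belonged to a member on chromosome 7 (75065900 to 75066164, hg19, 1-based), with 9 fragments over a background of 1.53. The next, at 3.84, was on chromosome 16 (49425103 to 49425367), and the third, at 3.81, on chromosome 7 (17809660 to 17809924). The third had the most fragments of the 5 highest, 13 over a background of 2.67. The other 2 of the 5 highest, both on chromosome 1 (29598333 to 29598597 and 38060233 to 38060497), had 8 fragments over the floor and a fold of 3.60. At the other end, members on chromosome 7 (46551330 to 46551594) and chromosome 1 (219314843 to 219315107) shared the lowest fold, 1.61, each with 8 fragments over a background of 4.61. The third lowest, 1.62, was on chromosome 1 (145051595 to 145051859). Members on chromosome 9 (111769153 to 111769417) and chromosome 19 (46295650 to 46295914) followed, both at 1.67 with 5 fragments. The 3 lowest thus had 8 or 9 fragments, more than most members, over backgrounds of 4.61 or more.

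Members lay apart from wide regions more often than regions of intermediate width did. The median distance from a member to the nearest wide region was 105 kb, against 66.9 kb for the 100462 regions of 266 bp to under 1000 bp. A wide region within 1 kb was found for 840 members (2.08%, 95% interval 1.94 to 2.22%) and for 4.46% of regions of intermediate width. The nearest other member was a median of 14.2 kb away. An MLL3 region within 1000 bp was found for 572 members (1.42%). The removal of regions that overlap MLL3 lowers this share, and no such share was taken for other GRHL2 regions. Before the MLL3 criterion was applied, 0.513% of the 265 bp regions overlapped an MLL3 region, against 6.11% of all GRHL2 regions and 41.0% of wide ones, and wider regions have more room to overlap.

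Density differed widely between chromosomes. Chromosome length was taken between the first and last listed region, less stretches of 500 kb or more without a region of either list. Chromosome 11 held 3416 members (26.5 per Mb, exact Poisson 95% interval 25.6 to 27.4), chromosome 5 held 4388 (26.1 per Mb, 25.3 to 26.9) and chromosome 7 held 3255 (21.3 per Mb, 20.5 to 21.998). The intervals of chromosomes 11 and 5 overlapped. Chromosomes 9 (20.8 per Mb) and 12 (20.4 per Mb) followed, with intervals that overlapped that of chromosome 7. At the low end were chromosomes 4 (955 members, 5.69 per Mb, 5.34 to 6.07), 18 (7.01 per Mb) and 14 (8.80 per Mb), and the median chromosome had 14.0 per Mb. Chromosomes 5, 7 and 11 together held 27.4% of members (95% interval 27.0 to 27.8%), 17.7% of wide regions (16.9 to 18.4%) and 17.7% of the length. In wide regions these chromosomes ranked 11, 13 and 7 of 22, and in strong regions, here those with a −log10 q of 5 or more, they ranked 13, 14 and 8. Over 22 chromosomes the Spearman correlation of member density was 0.55 with wide density and 0.38 with the density of strong regions. All of these come from 1 library.

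Most of the spread lay within chromosomes and not between them. Over 527 bins of 5 Mb, the median density was 13.4 members per Mb (quartiles 6.62 and 20.5). The bin at the 95th percentile had 39.6 per Mb and that at the 5th had 2.31, a 17.1-fold range. The variance of the bin counts was 43.0 times their mean, where counting error alone gives 1 in bins of equal length. Less their empty stretches the bins differed in length, which adds to this value. Differences between chromosome means made up 22.96% of the variance over bins. On chromosome 5 the bins ran from 0.787 to 49.0 per Mb, on chromosome 3 from 0.449 to 43.8 and on chromosome 7 from 2.28 to 55.2. Chromosomes 13, 18, 19 and 21 had no dense bin, and chromosome 4 had 35 of its 37 bins at or below the sparse limit given next.

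**Figure D1:**
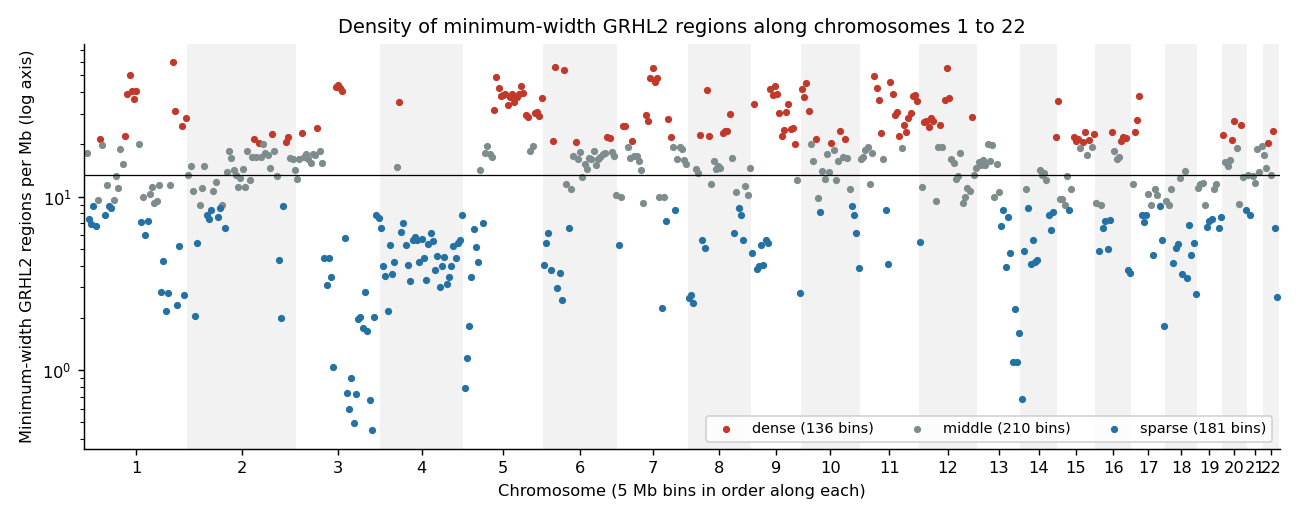
Members per Mb (log axis) in each of 527 bins of 5 Mb, in order along chromosomes 1 to 22, with the median of 13.4 per Mb as a line. Dense bins (136, red) and sparse bins (181, blue) stand in runs, such as the dense run on the right of chromosome 5 and the sparse runs on chromosomes 3 and 4.

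Bins with at least 1.5 times the median density (20.1 per Mb) are called dense and bins at or below the median divided by 1.5 (8.93 per Mb) sparse. There were 136 dense bins (25.8% of 527) and 181 sparse bins (34.3%). The dense bins covered 26.6% of the occupied length and held 20833 members (31.4 per Mb). The sparse bins covered 32.2% of it and held 4091 (5.09 per Mb). Since member density defined these classes, their 6.16-fold ratio of densities is a description. Neighbouring bins resembled each other: over 486 pairs of adjacent bins, which share a chromosome and a library, the Pearson correlation of member density was 0.71. It was 0.38 for regions of 400 bp to under 1000 bp, 0.21 for wide regions and 0.04 for MLL3 regions. Without 5 bins crowded with wide regions, these values were 0.75 for members and 0.55, 0.30 and 0.27. Bins held medians of 64 members, 74 regions of 400 bp to under 1000 bp, 12 wide and 18 MLL3 regions.

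Dense bins joined into 16 runs of 3 or more on 12 chromosomes, which held 89 of the 136 dense bins and 37.3% of all members. The longest was on chromosome 5 (70000001 to 150000000, 80 Mb, 2986 members, 37.7 per Mb), followed there by another (160000001 to 180000000, 31.8 per Mb). Chromosome 7 had 1 run (65000001 to 95000000, 42.3 per Mb). Chromosome 11 had 3, at 30000001 to 50000000 (37.9 per Mb), 70000001 to 95000000 (33.5) and 100000001 to 135000000 (31.5). The highest densities were in runs on chromosome 12 (60000001 to 75000000, 42.7 per Mb) and chromosome 3 (95000001 to 115000000, 42.5 per Mb). In the latter the 4 bins held between 40.8 and 43.8 per Mb, a nearly level plateau. Further dense runs were on chromosome 9 (70000001 to 130000000, 31.0 per Mb), chromosome 10 (1 to 20000000, 38.9), chromosome 1 (85000001 to 115000000, 38.1), chromosome 17 (5000001 to 20000000, 29.7) and chromosome 12 (10000001 to 35000000, 27.1). The lowest were on chromosome 8 (80000001 to 100000000, 25.1 per Mb), chromosome 16 (65000001 to 80000000, 21.5) and chromosome 15 (55000001 to 70000000, 21.4).

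Sparse bins joined into 24 runs on 14 chromosomes, with 134 of the 181 sparse bins. The longest covered most of the right side of chromosome 4 (55000001 to 190000000, 135 Mb, 583 members, 4.85 per Mb), and the left end of that chromosome was sparse as well (1 to 35000000, 4.18 per Mb). The lowest density of a run was on chromosome 3 (115000001 to 165000000, 70 members over 50 Mb, 1.88 per Mb), directly after its dense plateau. Chromosome 3 had 2 more, at 60000001 to 85000000 (3.30 per Mb) and 170000001 to 200000000 (3.40). Other runs under 5 per Mb were on chromosome 8 (1 to 15000000, 2.59), chromosome 1 (190000001 to 210000000, 2.89), chromosome 6 (35000001 to 50000000, 3.04, and 1 to 20000000, 4.91), chromosome 5 (1 to 35000000, 3.47), chromosome 13 (70000001 to 115000000, 4.47), chromosome 18 (50000001 to 75000000, 4.67, and 20000001 to 35000000, 4.86) and chromosome 9 (10000001 to 40000000, 4.70). The rest had at most 7.87 per Mb. They lay on chromosome 17 (65000001 to 80000000 and 25000001 to 40000000), chromosome 14 (40000001 to 65000000 and 85000001 to 100000000), chromosome 2 (205000001 to 220000000 and 40000001 to 55000000), chromosome 16 (15000001 to 35000000), chromosome 10 (115000001 to 135000000), chromosome 8 (115000001 to 130000000) and chromosome 1 (5000001 to 25000000).

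The sides of a chromosome sometimes differed as wholes. The longest empty stretch, where it reached 3 Mb, stood in for the centromere and gave 2 sides of at least 10 Mb on 17 chromosomes. Density differed by 2-fold or more between the sides on 5 of these and by under 1.5-fold on 7. On chromosome 5 the left side had 208 members (5.39 per Mb) and the right side 4180 (32.3 per Mb), a 5.99-fold difference, and wide regions went from 0.751 to 4.57 per Mb. The left side of chromosome 17 had 25.6 per Mb and the right side 7.66, and on chromosome 9 the sides had 8.54 and 27.3. On chromosome 9 wide regions numbered 21.5 per Mb on the left and 5.02 on the right, but 1 bin (5000001 to 10000000) held 770 of the 811 on the left. Without that bin the left side had 1.25 wide regions and 4.62 members per Mb, so wide regions were then lower on the left, as members were. Chromosomes 10 and 16 differed by 2.02-fold and 2.28-fold. The sides of chromosome 11 (25.3 and 27.2 per Mb) and chromosome 3 (13.7 and 12.5) were close, although chromosome 3 had both dense and sparse runs.

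Member density changed several-fold across a boundary on most chromosomes. Densities over the 10 Mb before and after each 1 Mb boundary were compared, and the largest ratio was taken for each of 22 chromosomes. It reached 3-fold or more on 17 of them, with a median of 4.91-fold. On chromosome 7 the boundary was at 96000000, with 472 members before it (47.2 per Mb) and 32 after (3.63 per Mb), a 13.0-fold fall. The last 1 Mb before it held 38 members and the first after it 3, and at the largest step of chromosome 2 these were 2 and 30. Counts beside the boundary changed little at others, from 3 to 5 on chromosome 1 and from 6 to 12 on chromosome 5, and windows of 10 Mb place an edge only roughly. Over the chromosome 7 boundary strong regions went from 55 to 45 (5.50 to 5.11 per Mb). On chromosome 11 the boundary was at 70000000, with 62 members before (6.25 per Mb) and 404 after (42.3 per Mb). Strong regions there went the other way, from 120 to 82. The largest step on chromosome 5 was at 51000000, beside its longest empty stretch, from 4.29 to 19.6 members per Mb. Strong regions there went from 2.86 to 5 per Mb (18 and 50 regions over 6.29 and 10 Mb of occupied length).

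The 5 largest steps on other chromosomes were between 7.43-fold and 35.1-fold. On chromosome 3 (120000000) 233 members lay before and 6 after, while strong regions numbered 30 and 36 (over 9.05 Mb of occupied length after it). Its counts per 1 Mb put the edge further left: 46 members between 113000001 and 114000000, then 9 between 114000001 and 115000000, an edge chosen after the counts were seen. On chromosome 1 (224000000) 477 members lay before and 20 after (47.7 and 2.11 per Mb). On chromosome 14 (32000000) 3 lay before and 92 after (0.479 and 9.67 per Mb). Strong regions across these went from 14.5 to 4.01 and from 4.95 to 3.26 per Mb, on chromosome 14 against the members. On chromosome 6 (34000000) members went from 52.8 to 3.64 per Mb and strong regions from 15.97 to 6.69. On chromosome 2 (219000000) members went from 3.06 to 22.7 and strong regions from 3.53 to 6.30 per Mb. Over all 22 steps, strong regions moved the same way as members in 16 and by a smaller fold in 18, with a median of 1.74-fold. Wide regions moved the same way in 21, with a median of 3.33-fold. The steps were selected on the members' own contrast, which favours high folds for them.

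**Figure D2:**
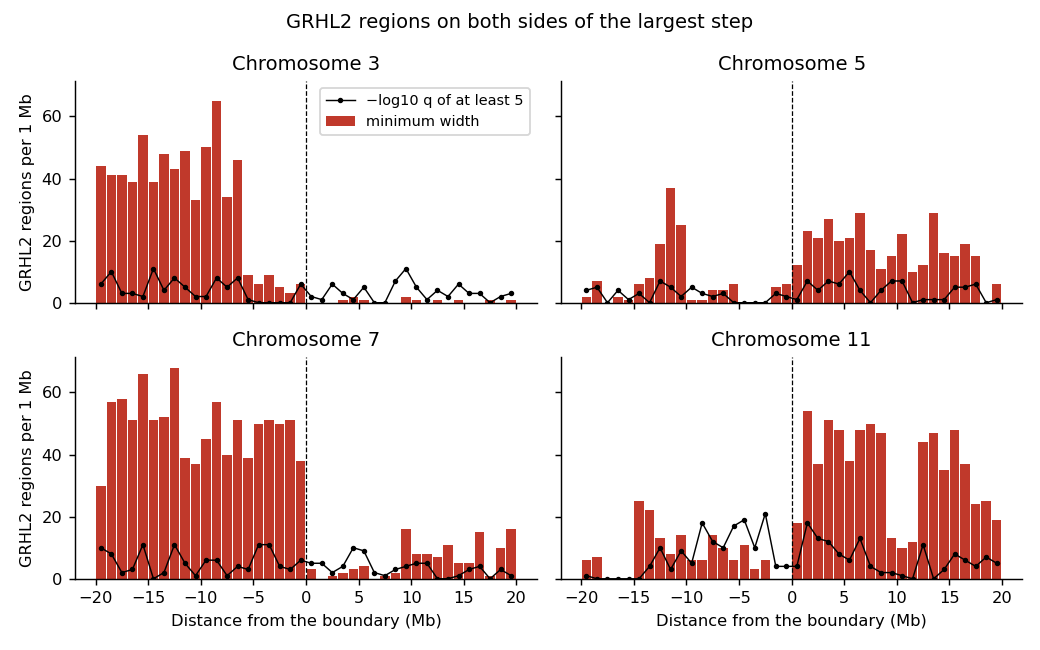
GRHL2 regions per 1 Mb within 20 Mb of the largest step in member density on chromosomes 3, 5, 7 and 11 (bars, members; line, strong regions). Members fall or rise at the dashed boundary on chromosomes 7 and 11 and a few Mb before it on chromosome 3. On chromosome 5 they rise gradually, from 6 to 12 beside the boundary, with an empty stretch to its left. Strong regions over 10 Mb go from 5.50 to 5.11 per Mb on chromosome 7 and from 3 to 3.98 per Mb on chromosome 3.

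Wide GRHL2 regions followed the members in rank but not closely. Over the 527 bins the Spearman correlation of both densities was 0.61 and the Pearson correlation 0.28. The latter rose to 0.57 without 5 bins that held at least 10 times the median wide density of 2.60 per Mb, and the Spearman correlation was then 0.60. With each bin set against its chromosome's mean, the Spearman correlation was 0.52. Dense bins held 7.32 wide regions per Mb and sparse bins 1.69, a 4.32-fold ratio, which was 3.07 without those 5 bins. Bins share a library, and both densities share the occupied length as denominator, which itself depends on the listed regions. These values are therefore descriptions with no p.

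**Figure D3:**
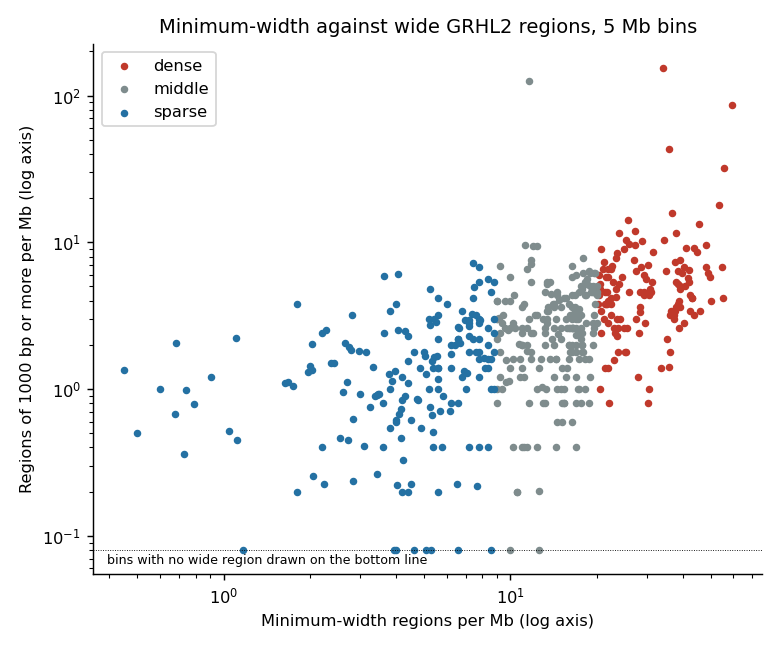
Members per Mb against wide GRHL2 regions per Mb in 527 bins of 5 Mb (both log axes, colours by member density class). The cloud rises from left to right (Spearman 0.61), and a few bins lie far above it, up to 154 wide regions per Mb.

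The 5 bins far above the cloud held many wide regions, and 4 of them were also dense in members. On chromosome 1 the bin 210000001 to 215000000 had 628 wide regions and 58 members, and the next bin had 432 wide regions and 297 members. The others were on chromosome 9 (5000001 to 10000000, 770 wide, 171 members), chromosome 6 (25000001 to 30000000, 111 wide, 194 members) and chromosome 15 (20000001 to 25000000, 189 wide, 156 members). Within the stretch on chromosome 1 the counts per 1 Mb crossed over. Between 212000001 and 213000000 there were 190 wide regions and 4 members, and between 218000001 and 219000000 there were 33 wide regions and 78 members. Members numbered 34 or more in each Mb from 214000001 to 223000000 and numbered 3 in the next Mb. On chromosome 9 wide regions outnumbered members in each Mb from 5000001 to 10000000, with 135 wide regions and 2 members between 5000001 and 6000000, 153 and 67 between 8000001 and 9000000, and 85 and 28 between 9000001 and 10000000. The next Mb held 0 wide regions and 3 members. MLL3 regions were crowded where wide GRHL2 regions began, with 368 in the first of these stretches of 1 Mb on chromosome 1 and 444 in the first on chromosome 9.

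Classes of GRHL2 regions differed in how far they followed the dense bins, and the ratio was lower for strong calls. Regions of 266 bp to under 400 bp were 5.996 times as dense per Mb in dense as in sparse bins, those of 400 bp to under 1000 bp 4.86 times, and those of 2000 bp or more 7.64 times. Without the 5 bins the last was 4.30 and that of members 6.08. By q, the ratio was 6.69 for regions with a q above 0.05, 6.93 for a q of 0.01 to 0.05, 4.34 for a −log10 q of 2 to 5, 1.91 for 5 to 20, 1.40 for 20 to 100 and 1.48 for 100 or more. Without the 5 bins these were 6.40, 6.19, 3.41, 1.71, 1.38 and 1.48. Member density defined the bins and most members have a q above 0.05, so the ratio of that class is partly set by the choice. The remaining members are in the classes with a −log10 q under 5, and no ratio by q was taken without members. The Spearman correlation with member density over bins went from 0.96 in the weakest class, which contains most members, to 0.20 in the strongest. The strongest class had a median of 3 regions per bin, and so few counts lower a correlation over bins. Each q class held at least 566 regions in the sparse bins, and regions of 2000 bp or more held 139 there. MLL3 regions, called in the other library, had a ratio of 2.57 (7.25 against 2.82 per Mb), or 2.04 without the 5 bins, and those with a −log10 q of 10 or more had 2.04.

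**Figure D4:**
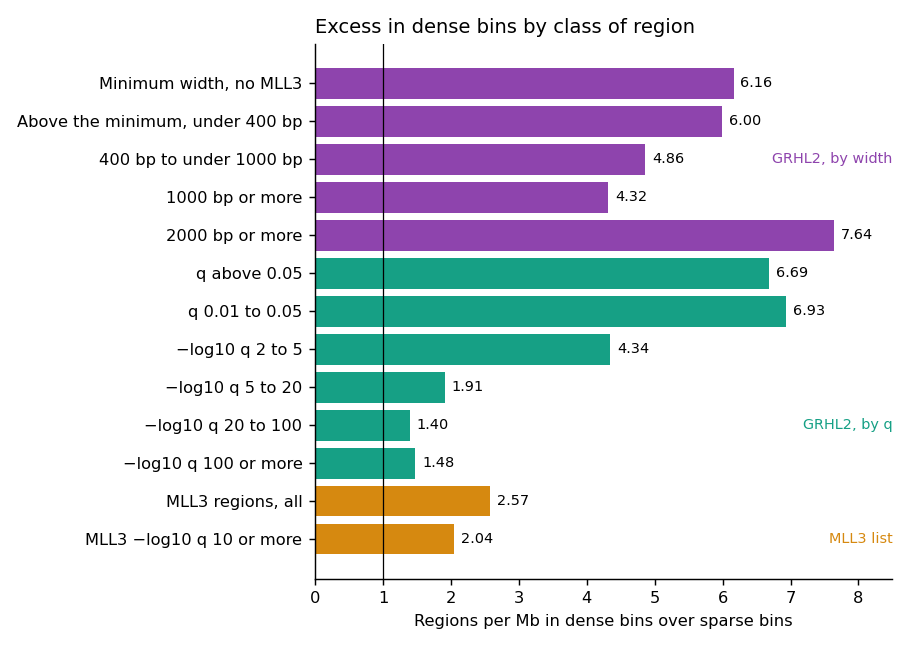
Ratio of regions per Mb in dense bins to sparse bins, for GRHL2 regions by width (purple) and by q (green) and for MLL3 regions (orange), with 1 marking no difference. The ratio is 6.16 for members, 6.69 for q above 0.05, 6.93 for q of 0.01 to 0.05 and under 2 for −log10 q of 5 or more. Member density defined the bins, and most members have a q above 0.05.

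Members of dense and sparse bins had similar strength and differed in background. Their median fold was 2.40 in dense, middle and sparse bins, a value that the choice by width largely sets. A q under 0.05 was reached by 5.89% of the members in dense bins (95% interval 5.57 to 6.22%), 5.67% in middle bins (5.31 to 6.06%) and 5.04% in sparse bins (4.39 to 5.75%). The mean pileup was 5.65 ± 0.954 fragments in dense bins and 5.79 ± 1.18 in sparse bins (SD over 20832 and 4090 members). The implied background was above its floor for 45.1% of members in dense bins (95% interval 44.4 to 45.8%). It was above the floor for 45.3% in middle bins (44.5 to 46.1%) and for 58.1% in sparse bins (56.6 to 59.6%). Dense and middle bins were thus alike in this share. These intervals treat members as independent and leave out the spread between bins.

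The background implied by the other GRHL2 regions was not raised in the dense bins. The median bin value was 1.54 fragments in dense bins, 1.56 in middle bins and 1.83 in sparse bins, from GRHL2 regions that are not members. The MLL3 list, whose own floor was 1.26, gave 1.596, 1.61 and 1.96. The backgrounds of the lists went together over 526 bins (Spearman 0.87, Pearson 0.90). Whether the same input served both lists is not given in the sources used here. Both can be read only where a region was called. The GRHL2 values stop at the floor of 1.502, which was also their lower quartile in dense, middle and sparse bins alike. A lower local background would not show, so bins at the floor cannot be told apart by it.

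Sparse bins covered a wide range of this value. Of the 181, 62 had a median background under 1.6, close to the floor, 42 had 1.6 to 2.0, 38 had 2.0 to 2.5 and 39 had 2.5 or more. Of 44 bins with a background of 2.5 or more, 39 were sparse and none was dense, against 34.3% and 25.8% of all 527 bins. In the 22 bins with 3.0 or more, all sparse, member density was 1.85 per Mb, against 18.5 per Mb in the 251 bins under 1.6. Sorted by the background of the MLL3 list, density was 18.0 per Mb in 243 bins under 1.6. It was 2.996 per Mb in 18 bins of 3.0 or more, of which 16 were sparse. The background of the MLL3 list followed that of the GRHL2 list (Spearman 0.87), so this sorting is not a separate check. The calling rule also ties density to background, since the p limit needs 4 fragments at the floor and 6 at a background of 3.0. As a multiple of the background, the number needed goes the other way, from 2.66 at the floor to 2 at 3.0. The part of this rule in these densities was not tested.

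**Figure D5:**
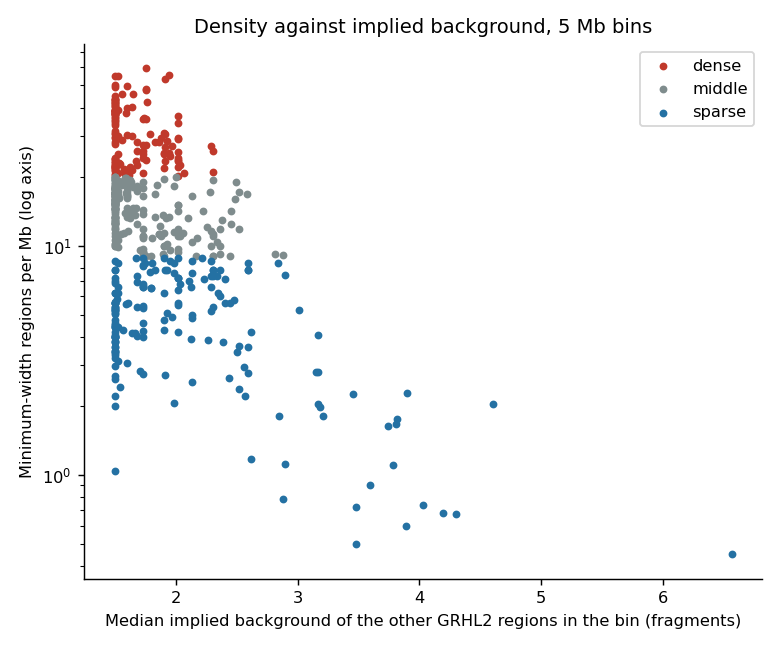
Members per Mb (log axis) against the median implied background, in fragments, of the other GRHL2 regions in 527 bins of 5 Mb. Every bin with a background of 3.0 or more is sparse, and at the floor of 1.502 all 3 classes occur.

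Across sparse bins, member density had no steady order by background, while strong regions were denser at each higher level. From the lowest level of background to the highest, the 4 groups had 4.77, 6.19, 6.33 and 2.95 members per Mb, densities that the choice of sparse bins bounds from above. Strong regions numbered 2.89, 3.98, 5.23 and 6.02 per Mb, against 7.24 in dense bins. Strong regions with a recovered pileup also enter the median background of their bin. Regions with a −log10 q of 5 to 20 had a mean background of 2.19, against 1.85 for those with a q above 0.05. The effect of this on the order was not tested. MLL3 regions numbered 1.97, 2.73, 3.44 and 3.67 per Mb. In the 39 sparse bins with a background of 2.5 or more, GRHL2 regions with a −log10 q of 100 or more reached 1.06 per Mb, close to the 1.04 per Mb of dense bins, with 31.4 members per Mb in the latter. The sparse runs on chromosome 4, chromosome 9, the left of chromosome 3 (60000001 to 85000000) and chromosome 18 (50000001 to 75000000) had a median background at the floor. The runs further right on chromosome 3 (3.45 and 3.17), the left end of chromosome 5 (2.57) and chromosome 17 (65000001 to 80000000, 2.52) had a background of 2.5 or more. Dense runs had backgrounds between the floor and 2.02.

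The extreme bins differed in background as well. The 5 sparsest were on chromosome 3 (180000001 to 185000000, 2 members, 0.449 per Mb, 95% interval 0.0544 to 1.62; 135000001 to 140000000, 0.498; 125000001 to 130000000, 0.600; and 175000001 to 180000000, 0.677) and chromosome 14 (20000001 to 25000000, 0.682). Their backgrounds were 6.56, 3.48, 3.89, 4.30 and 4.20 fragments, and the MLL3 list gave 6.66, 3.27, 3.60, 4.23 and 3.89. Each of the 5 still held 11 to 14 MLL3 regions. The 5 densest were on chromosome 1 (215000001 to 220000000, 297 members, 59.4 per Mb, 95% interval 52.8 to 66.6), chromosome 6 (25000001 to 30000000, 55.7, and 50000001 to 55000000, 53.5), chromosome 7 (80000001 to 85000000, 55.2) and chromosome 12 (65000001 to 70000000, 54.8). Their backgrounds were between the floor and 1.94. The bins on chromosomes 7 and 12 had 4.20 and 6.80 wide regions per Mb, and the first on chromosome 1 had 86.4.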

How the data were processed

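Each library had 1 deposited narrowPeak list, called against input. Per the submitters' processing notes the tools included BWA, Picard, MACS2 and deepTools with build hg19, of unstated version and setting. The deposited fold is a ratio to local background. The deposited −log10 p and −log10 q, and a score that repeats one of them, are the authors'. Members were counted by midpoint in 5 Mb bins (Python 3.11.15, pandas 2.3.3, SciPy 1.17.1). Density is per Mb of occupied length, and 46 of 573 bins with under 2.5 Mb of it were dropped, with 583 members. Pileups were solved up to 60 fragments. Bin classes, runs, steps and named regions followed written rules: the 5 extreme bins and members at each end, all runs, and the largest steps. The division by background and the counts per 1 Mb were added later. Members and lists were chosen with earlier results of these data known. The procedures were tested on simulated data. No reference sequence was used.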

Additional observations from a re-analysis of the deposited data

Results flagged for a closer look

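Regions outside chromosomes 1 to 22 took no part in the comparisons. Chromosome X held 597 GRHL2 regions of 265 bp without MLL3 (4.88 per Mb, exact Poisson 95% interval 4.49 to 5.29), a density below that of every one of chromosomes 1 to 22. Contigs outside the assembled chromosomes held 45 such regions, and chromosome Y held 3. They are listed as signal outside the main measurement, and no control library was analysed here.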

How the results depend on the processing

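Of 45 alternatives, 39 stayed within the limits set for calling a value the same (0.1 for a correlation, 1.5-fold for a count, 10% for a ratio, 10 percentage points for a share of variance), and none changed sign. The Spearman correlation of members with wide regions was 0.49 with bins of 1 Mb and 0.34 when wide regions were replaced by those with a −log10 q of at least 5, against 0.61. The number of dense bins was 900 with bins of 1 Mb (35.4% of 2541), 52 with bins of 10 Mb (19.4% of 268) and 80 when dense meant 2 times the median, against 136. The correlation of neighbouring bins was 0.60 with bins of 10 Mb, against 0.71. The count of members ran from 33627 (−log10 p of at least 2) to 53540 (width up to 300 bp), and the density of chromosomes 5, 7 and 11 was 1.68 to 1.79 times the median chromosome, with 1.75 as reported. Bin size and shift cannot change that ratio and have no value for it. The omission of 5 bins with many wide regions and of chromosomes 5, 7 and 11 was chosen after seeing the data. Removing empty stretches raises the density of sparse bins, and keeping them gave 178 dense bins of 573. Read depth is known only as the implied background. No paired analysis was possible because only 1 library was made per antibody.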
